A study of Caenorhabditis elegans with 20 samples.

Results

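The transcriptome of wild-type young adult Caenorhabditis elegans, a nematode, was described by the abundance of its messages in animals kept without mold. The samples were chosen by their labels, genotype WT and no mold. They are 5 of the 20 samples of the study and make up 3 of its 12 replicates. Replicate 1 is 1 sample, and replicates 2 and 3 are 2 samples each, whose titles differ by a suffix of 1 or 2. Such pairs were read as sequencing runs of 1 replicate and were summed. Whole animals had grown from larvae arrested at the first stage (L1) for about 48 hours at 20 C on NGM agar with Escherichia coli OP50 as food, and their poly(A) RNA was sequenced from stranded libraries. The labels name no strain beyond WT and do not say whether the replicates were separate cultures, so errors and tests here cover only how far these samples vary among themselves, which may be technical. The groups used for comparison were WT animals on plates that also held the mold Penicillium brevicompactum, and animals with the allele ns889, whose gene the labels do not name, without and with that mold. All groups shared the food and the growth scheme.

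A young adult of this species has finished its last moult and is covered by an adult cuticle of collagens over body wall muscle. Its hermaphrodite germ line makes sperm first and then oocytes. The intestine makes yolk proteins, the vitellogenins, which are secreted and taken up by oocytes. In RNA of whole animals, fewer cells of a type and less RNA per cell cannot be told apart.

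Levels are given in TPM, the unit of transcripts scaled to sequencing depth and gene length, which is the count of a gene divided by its length and scaled to the same sum in each replicate. A TPM value is a share of the poly(A) RNA counted and not a number of molecules per animal. Values of single replicates are given in the order replicate 1, 2 and 3, and errors are SDs over these 3. The replicates held 115940062, 95998037 and 98721655 counts. Replicate 1 stood apart. Among 8342 genes with a mean of at least 10 TPM, the median absolute log2 ratio of CPM (counts scaled to the library total) was 0.253 between replicates 1 and 2 and 0.246 between replicates 1 and 3, against 0.0543 between replicates 2 and 3. Results that rest on replicate 1 are also given without it.

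Of 46904 genes in the deposited table, 12969 reached 1 TPM in all 3 replicates. Of 19901 protein-coding genes, 12446 (62.5%) did so, and 1634 had no count in any of the 3. The distribution was steep. The 10 most abundant genes held 6.21% of all TPM, the 100 most abundant held 29.5%, and 373 genes were enough to reach 50%. Protein-coding genes made up 99.1% of TPM.

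**Figure D1:**
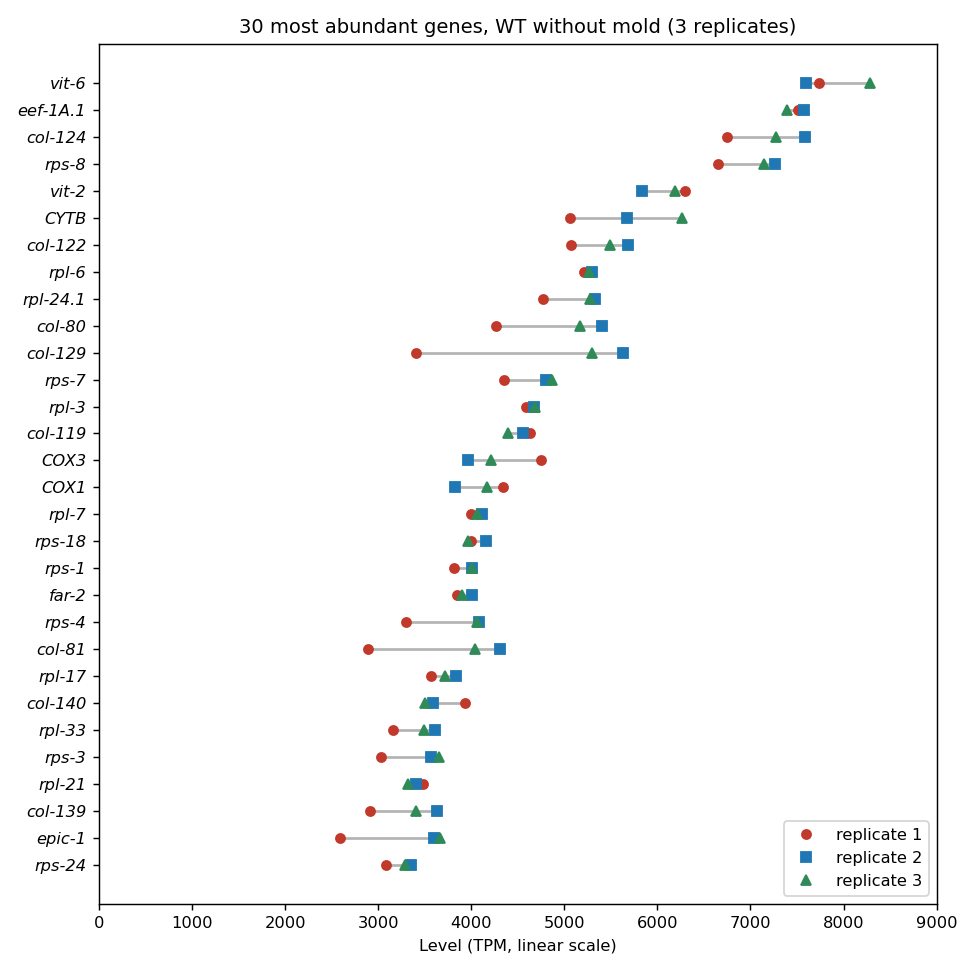
Level in TPM (linear axis) of the 30 genes with the highest mean in WT animals without mold, with 1 point per replicate and a line from the lowest to the highest. vit-6 and eef-1A.1 lead, and the long lines of col-129 and col-81 end in the low point of replicate 1.

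The 30 most abundant genes were 14 ribosomal protein genes, 8 collagen genes, 3 genes of mitochondrial DNA, 2 vitellogenin genes, 1 translation factor gene, 1 gene of a fatty acid- and retinol-binding protein and epic-1. The highest mean was that of vit-6, a vitellogenin gene (WBGene00006930, chromosome IV, 8261134 to 8266462 in WBcel235), with 7740, 7598 and 8284 TPM (7874 ± 362). It was followed by eef-1A.1, which encodes the elongation factor that brings tRNA to the ribosome (WBGene00001168, chromosome III, 6970026 to 6972003), with 7505, 7572 and 7394 TPM (7491 ± 89.9). vit-6 was higher in every replicate, and the ranges did not overlap, although 7598 and 7572 TPM in replicate 2 nearly met. With 150 bases taken off each length rps-8 led instead, and 27 of the 30 genes kept their place among the first 30; without division by length 15 did. The collagen gene col-124 (chromosome IV, 10216450 to 10217643) had 6749, 7591 and 7271 TPM, and rps-8, a small subunit ribosomal protein gene (chromosome IV, 7312981 to 7313864), had 6648, 7266 and 7143 TPM. In the plot of the 30 most abundant genes, neighbours in the order mostly could not be separated: of 29 pairs of neighbours, 27 overlapped in their ranges and 4 kept the same order in all 3 replicates. Of the 30 genes, 26 were among the first 30 of every replicate.

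Genes of the ribosome took the largest share among the 48 classes, of which 47 were drawn up by gene name and 1 holds the genes of mitochondrial DNA. The 83 cytosolic ribosomal protein genes held 16.8, 17.6 and 17.1% of TPM (17.2 ± 0.381%), and all 83 reached 1 TPM. The 33 genes of the small subunit class held 7.70% and the 50 genes of the large subunit class 9.46%. A class drawn up by gene name misses any ribosomal protein gene known only by a clone name, so these shares may be too low. Most ribosomal proteins are known to be present in equal numbers in a ribosome, and the levels of their messages lay close together. The middle 50% of the 83 genes spanned a ratio of 1.93, around a median of 1803 TPM, and 68 genes were at or over 1000 TPM. Among the 30 most abundant genes of any class, rpl-6, a large subunit protein gene with 5210, 5297 and 5260 TPM, had the smallest coefficient of variation (CV, the SD as a percentage of the mean), 0.830%.

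A few genes of this class, which rests on names alone, lay far below the rest. They were picked out after their values were seen. rpl-42 had 4.92, 5.47 and 5.17 TPM, rpl-41.1 had 95.3, 82.0 and 77.0 TPM, and rpl-24.2 had 174, 175 and 185 TPM. rpl-24.1 was 28.8 ± 1.51 times as abundant as rpl-24.2. Of the paralogs rpl-11.1 and rpl-11.2, the first had 1704, 1675 and 1593 TPM and the second 650, 787 and 770 TPM. The first was higher in every replicate. How the submitters counted reads shared by copies of a gene is unknown here, so values of paralogs are uncertain.

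Translation factors held 2.16 ± 0.0209% of TPM in 45 genes, and eef-1A.1 alone held 34.7% of that. The next were eef-2, the translocation factor, with 2013, 2081 and 1996 TPM, and pab-1, a poly(A)-binding protein gene, with 1723, 2048 and 2058 TPM. pab-1 was low in replicate 1, whereas eef-2 was not.

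Yolk genes form a family of 6, and all 6 were among the abundant genes. vit-6 was followed by vit-2 with 6297, 5833 and 6193 TPM, vit-5 with 2607, 2352 and 2584 TPM and vit-1 with 1568, 1101 and 1273 TPM. vit-3 had 626, 463 and 535 TPM and vit-4 had 623, 458 and 527 TPM. The last pair stood in a ratio of 1.01 ± 0.00471, and since both, with vit-5, are near-identical copies, the split between them is uncertain. vit-1 and vit-2 are close copies as well. vit-3 and vit-4 together came to 1077 ± 164 TPM. vit-6 was higher than vit-2 in every replicate, and both lay above the other 4. The family held 1.89 ± 0.0938% of TPM. Vitellogenin messages are long, and the same 6 genes held 6.64 ± 0.274% of the counts.

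**Figure D2:**
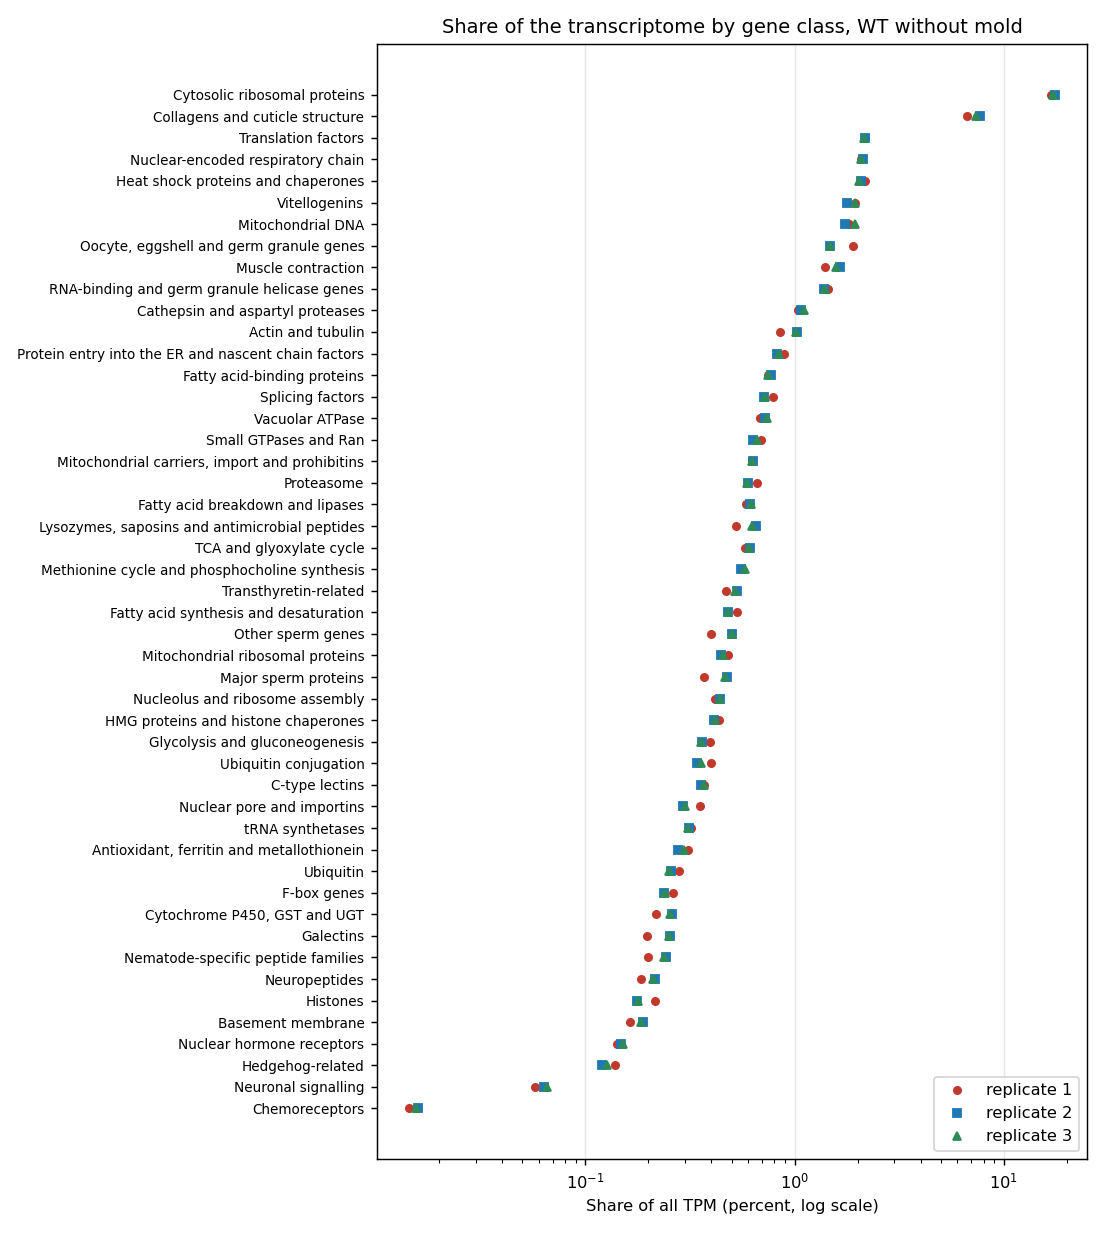
Share of all TPM (percent, log axis) held by each of the 48 gene classes in WT animals without mold, with 1 symbol per replicate. Ribosomal proteins at 17.2% and collagens at 7.24% stand above all other classes, and chemoreceptors at 0.0153% stand below them.

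The cuticle was the second class in size by TPM; by counts it came after the vitellogenins. Its 220 genes, mostly collagens, held 6.67, 7.67 and 7.38% of TPM (7.24 ± 0.518%), and 10 of them held 60.7% of the class. The class was uneven: 20 genes were at or over 1000 TPM while 83 were under 1 TPM. col-124 was followed by col-122 (5073, 5681 and 5491 TPM) and col-80 (4261, 5408 and 5164 TPM). col-19, a collagen gene used as a marker of the adult cuticle, had 3056, 3251 and 3185 TPM. The collagen genes dpy-7 and rol-6, whose messages are known to rise and fall with each moult, were at 0.773 ± 0.495 and 1.17 ± 0.785 TPM. Many collagen genes have close paralogs, and how reads were split between them was not checked.

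**Figure D3:**
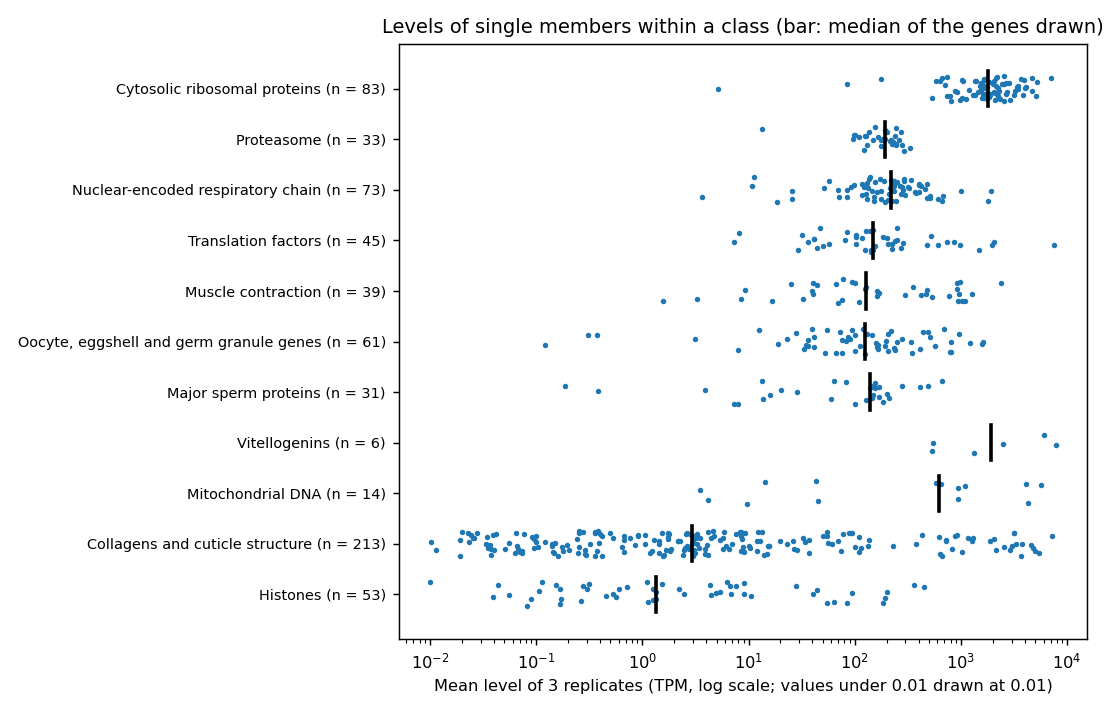
Mean level in TPM (log axis) of each gene in 11 classes in WT animals without mold, with 1 point per gene with a count and a bar at the median of the genes drawn. Ribosomal protein and proteasome genes form narrow bands, whereas the 213 collagen and cuticle genes spread from below 0.1 to above 1000 TPM.

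By the ratio between the quartiles of their members, the narrowest of the 48 classes were the proteasome (1.83), nuclear pore and importins (1.85), cytosolic ribosomal proteins (1.93) and splicing factors (1.94), as seen in part in the plot of single members. The 33 proteasome genes held 0.618 ± 0.0386% of TPM, with a median of 191 TPM and pbs-1, a subunit of its core, highest at 357, 320 and 326 TPM. The 73 respiratory chain genes of the nucleus held 2.09 ± 0.0257%, with atp-2, a subunit of the ATP synthase, highest at 1859, 1954 and 1925 TPM. The middle 50% of that class spanned a ratio of 2.51. In the class of collagens the corresponding ratio, among genes that reached 1 TPM, was 40.5.

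Genes of mitochondrial DNA held 1.84 ± 0.099% of TPM, and they were uneven. CYTB, a subunit of respiratory complex III, had 5060, 5678 and 6259 TPM, and was the highest of the 12 coding genes. The cytochrome oxidase genes COX3 (4752, 3961 and 4216 TPM) and COX1 (4336, 3827 and 4171 TPM) followed, while COX2 had 1150, 982 and 1113 TPM. The ratio of COX1 to COX2, partners in 1 enzyme, was 3.80 ± 0.0804. The lowest were ND4L at 4.16 ± 0.952 TPM and ND2 at 3.49 ± 0.188 TPM, both of complex I. Of the other mitochondrial members of that complex, ND4, ND1 and ND5 had means of 936, 930 and 582 TPM. They were among the 4 genes of mitochondrial DNA from 100 to 1000 TPM, and the remaining members are not given here. The mitochondrial coding genes were named by overlap with the RefSeq genes of the same build.

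Among the remaining classes, heat shock proteins and chaperones held 2.09 ± 0.0655%. Their most abundant gene was hsp-1, a constitutive Hsp70 gene, with 2376, 2471 and 2359 TPM, followed by sip-1, a small heat shock protein gene, with 2964, 1719 and 1727 TPM. sip-1 was high in replicate 1 alone. Muscle contraction genes held 1.54 ± 0.125%, with the myosin light chain gene mlc-2 at 2059, 2581 and 2462 TPM. unc-54, the major body wall myosin heavy chain gene, had 831, 1027 and 1021 TPM and was 12.2 ± 0.844 times as abundant as myo-3, the other heavy chain of that muscle.

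Genes of the 5 actins added up to 0.688% of TPM. act-4 was the highest, with 2385, 3274 and 3187 TPM, and was 2.92 ± 0.195 times as abundant as act-5, an intestinal actin. act-1, act-2 and act-3 lie side by side on chromosome V and are near-identical, so that their values (means of 954, 987 and 971 TPM) depend on how shared reads were counted. Cathepsin and aspartyl protease genes held 1.07 ± 0.0338%, led by asp-1, an intestinal aspartyl protease gene, with 1996, 2260 and 2233 TPM. The fatty acid- and retinol-binding protein genes far-2 (3842, 4005 and 3897 TPM) and far-1 (1603, 1802 and 1706 TPM) led the class of fatty acid-binding proteins, of which far-2 held 51.9%.

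Among RNA-binding proteins, vig-1 had 2541, 2650 and 2619 TPM. ant-1.1, the adenine nucleotide carrier of the mitochondrial membrane, had 2797, 2944 and 2880 TPM and held 45.7% of its class of carriers and import genes. Both were even between the replicates.

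Metabolic classes were smaller. The tricarboxylic acid and glyoxylate cycle held 0.5996 ± 0.0186% of TPM and glycolysis with gluconeogenesis 0.371 ± 0.0195%. ahcy-1, which removes the by-product of methylation reactions, had 2475, 2397 and 2519 TPM and made up 43.7% of the class of methionine cycle and phosphocholine synthesis. acdh-1, an acyl-CoA dehydrogenase gene, had 1605, 1652 and 1759 TPM and led fatty acid breakdown, while elo-1 (644, 560 and 562 TPM), a fatty acid elongase gene, led fatty acid synthesis. No gene of cytochrome P450 enzymes, glutathione S-transferases or UDP-glycosyltransferases reached 1000 TPM, and the 188 together held 0.245 ± 0.0226%.

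Classes tied to defence were led by nlp-27, an antimicrobial peptide gene of the epidermis, with 552, 970 and 914 TPM, and by the C-type lectin gene clec-63 with 566, 689 and 646 TPM. Of 240 C-type lectin genes 80 reached 1 TPM in all 3 replicates, and of 113 lysozyme, saposin and antimicrobial peptide genes 57 did. nlp-27 was low in replicate 1.

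Germ line genes of both kinds were present. Oocyte, eggshell and germ granule genes held 1.62 ± 0.254% of TPM, with perm-2, an eggshell gene, at 1738, 1559 and 1516 TPM and cey-2, a Y-box RNA-binding protein gene, at 1854, 1502 and 1425 TPM. The 31 genes of the major sperm proteins, the cytoskeletal proteins of nematode sperm, held 0.436 ± 0.0579% of TPM and, being short, 0.135% of the counts. The highest of them was msp-31, with 488, 754 and 765 TPM. The msp genes are near-identical copies of each other, so their sum is firmer than any member. Other sperm genes held a further 0.468 ± 0.059%. Of 9 early embryo markers found in the table, none reached 1 TPM as a mean, 2 had no count in any of the 3 replicates, and the 9 together came to 0.955 ± 0.112 TPM.

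The label of young adults was checked against marker genes. Of the 10 markers of the adult stage, all reached 1 TPM in all 3 replicates, beside 62.5% of all coding genes, and they came to 22222 ± 793 TPM. Most of that sum came from genes already described as abundant, the 6 vitellogenins (18887 TPM) and col-19 (3164 TPM). The lowest of the 10, col-63, had 4.40 TPM. The 5 early larval heterochronic markers also did, with a sum of 215, 164 and 164 TPM that came mostly from lin-41, a gene also in the oocyte class, and so did 8 of 10 dauer and starvation markers, with a sum of 174 ± 11.5 TPM. The level was also reached by 10 of 10 neuron markers, 8 of 10 pharynx markers and 6 of the 9 amphid sheath glia markers found. Neuron markers came to 479 ± 26.2 TPM in all, against 5575 ± 411 TPM for body wall muscle markers and 4013 ± 505 TPM for intestine markers. The medians of these lists were 26.9, 596 and 143 TPM in that order. In the intestine list asp-1 alone had 2163 TPM, and mtl-1 was lowest at 0.525 TPM. Chemoreceptors, the largest class by number with 1299 genes, held 0.0153 ± 0.000763% of TPM. Of these, 14 reached 1 TPM in all 3 replicates and 473 had no count.

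Coding genes of the X chromosome were lower than those of the autosomes. Among those that reached 1 TPM, the median was 9.56 TPM on X, 15.98 on V, 21.2 on II, 22.2 on IV, 31.1 on III and 32.1 on I. The X median was 9.57, 9.55 and 9.53 TPM in the single replicates, and 61.9% of X-linked coding genes reached 1 TPM, against 45.7% on V and 77.6% on III. The vitellogenin genes other than vit-6 lie on X.

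The spread between replicates depended on replicate 1. Over the 8342 genes of at least 10 TPM, the median CV was 10.996%, against 1.48% from counting error alone. Without replicate 1 it was 2.76%. The 2 runs of replicate 2 differed by a median of 0.0286 on the log2 scale, where counting error alone gives 0.0303. Replicate 1 held the lowest or the highest value of the 3 in 90.6% of the 12969 genes, and it was lowest in 5778 and highest in 5966 of them. Replicates 2 and 3 were extreme in 56.2% and 53.2%. Pairs of replicates in the other groups differed by a median of 0.0650 to 0.211.

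**Figure D4:**
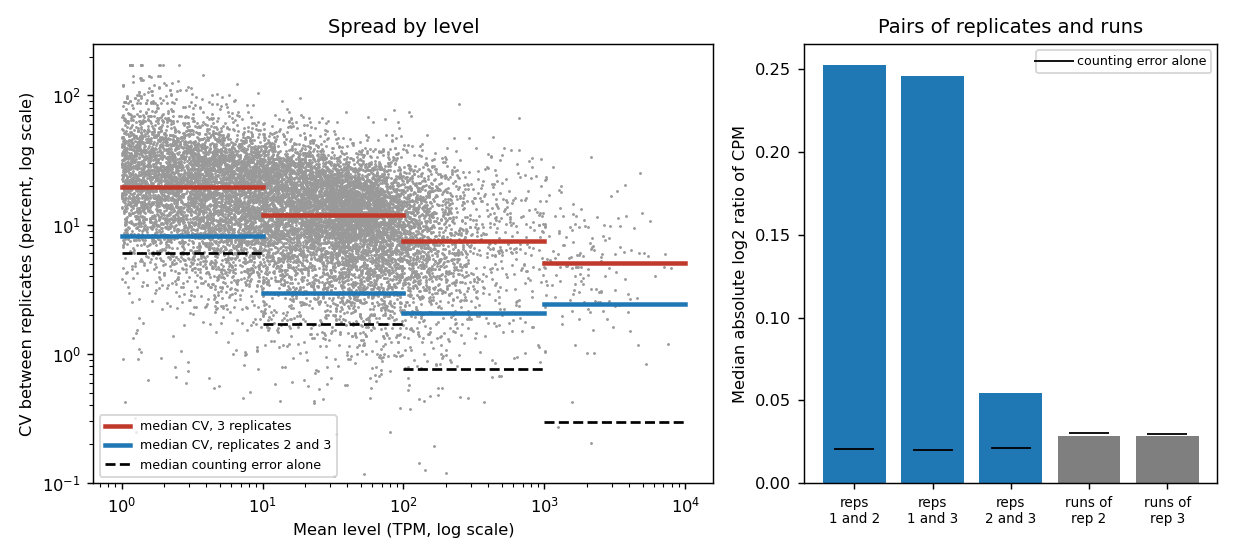
Left, CV between replicates (percent, log axis) of each gene against its mean level (TPM, log axis), with medians by level for 3 replicates, for replicates 2 and 3, and for counting error alone. Right, median absolute log2 ratio of CPM between pairs of replicates (blue) and between runs of 1 replicate (gray), with counting error as a line: both pairs with replicate 1 lie at about 0.25, and all others below 0.06.

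Spread fell with level, from a median CV of 19.6% at 1 to 10 TPM to 5.06% at or over 1000 TPM. Without replicate 1 the median was 8.24% at 1 to 10 TPM, 2.96% at 10 to 100 and 2.09% at 100 to 1000. At or over 1000 TPM it was then 2.44%, so it did not fall at the last step. At the even end, abcf-2 had 201.7, 201.9 and 201.4 TPM and eif-3.B, a translation initiation factor gene, had 143.2, 143.2 and 143.5 TPM. At the uneven end, fat-7, a stearoyl-CoA desaturase gene, had 494, 110 and 139 TPM, and hsp-16.2, a heat-inducible small heat shock gene, had 28.2, 6.92 and 6.38 TPM. The collagen gene col-146 went the other way, with 16.9, 171 and 140 TPM. So did grl-21, a hedgehog-related gene, with 3.48, 25.1 and 27.9 TPM, and hmit-1.1, a myo-inositol transporter gene, with 2.34, 24.0 and 20.2 TPM. Of the 100 genes of largest CV (45.1 to 95.1%), replicate 1 was lowest in 57 and highest in 40, and 22 of the 100 were collagen or cuticle genes, a class with 69 of the 8342 genes.

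Replicate 1 differed by class. Over all 12969 genes at 1 TPM it was lowest in 5778 and highest in 5966. The classes named for this were picked from the 48, and others were even. In the nuclear respiratory chain replicate 1 was lowest in 33 and highest in 32 of 73 genes. The oocyte, eggshell and germ granule class held 1.91% in replicate 1 and 1.47% in each of the others, and replicate 1 was highest in 48 of its 58 genes at 1 TPM. pos-1, an RNA-binding protein of the early embryo supplied by the mother, had 750, 387 and 411 TPM. cpg-2, an eggshell proteoglycan gene, had 1305, 763 and 780 TPM. Both genes were picked from the class and were higher in replicate 1 than in both other replicates. For the class as a whole, the share in replicate 1 was 1.30 times the mean of the other replicates.

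In the same replicate the sperm classes were low. Major sperm proteins held 0.369, 0.474 and 0.464%, and replicate 1 was lowest in 22 of 29 genes. Other sperm genes held 0.400, 0.502 and 0.502%, and replicate 1 was lowest in 48 of 60. Collagens were lowest there in 89 of 124 genes, muscle contraction in 29 of 39 and neuronal signalling in 31 of 35. Proteasome genes were highest in 31 of 33, splicing factors in 55 of 62 and nuclear pore and importin genes in 31 of 34. Without replicate 1 the collagen share was 7.53% and the oocyte share 1.47%. The sum of the sperm markers was 894, 1320 and 1363 TPM, and that of the oocyte markers was 6178, 4606 and 4680 TPM, and their part in the spread of other genes was not tested.

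**Figure D5:**
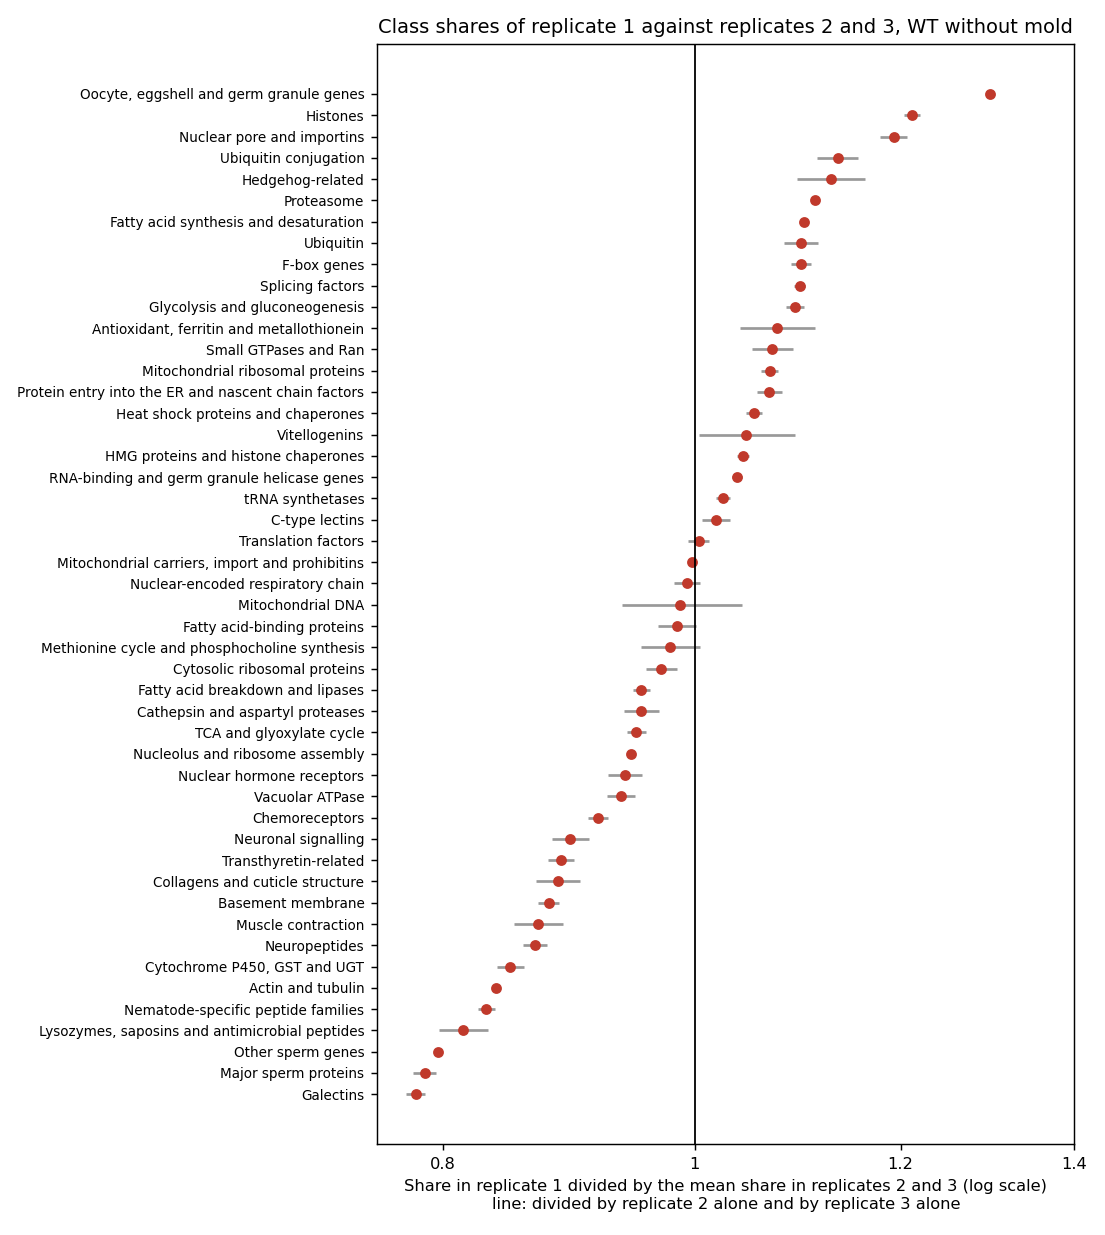
Share of TPM in replicate 1 divided by the mean share in replicates 2 and 3 (log axis) for each of the 48 classes, with lines to the ratio against replicate 2 and against replicate 3. The oocyte class lies at 1.30 and both sperm classes at or below 0.80, on opposite sides of 1, and ribosomal proteins lie at 0.971.

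The most abundant genes were compared between WT animals without mold and 2 other groups with the quasi-likelihood test of edgeR (all 12 replicates in 1 model, p-values adjusted by Benjamini-Hochberg over 16980 genes). Both comparisons share the same control replicates. In WT with mold against WT without mold 6.27% of all genes tested passed an adjusted p of 0.05 (1.67% higher and 4.6% lower), and in ns889 without mold against WT without mold 2.87% did (2.42% higher and 0.453% lower). The first share rested on single replicates: it was 27.9% without WT without mold replicate 1 and between 0.923 and 11.7% without any 1 of the other 5 replicates of both groups, and 13.5% by DESeq2. The second was 4.76% by DESeq2 and between 1.85 and 3.88% without any 1 replicate. Of the 50 genes with the highest mean TPM over all 12 replicates, 48 of which are also among the 50 most abundant of WT without mold, none passed in either comparison. DESeq2 called 2 of the 50 in the first comparison, asp-1 (log2 fold change 0.33) and dct-16 (0.29), and 1 in the second, rpl-3 (0.21). At an unadjusted p of 0.05, edgeR gave 3 of 50 in the first comparison and 11 of 50 in the second. Over all 16980 genes tested, 4176 in the first and 2000 in the second reached that level. The smallest adjusted p of edgeR among the 50 was 0.0608 in the first and 0.0523 in the second.

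The median log2 fold change of the 50 was -0.04 with mold and 0.09 in ns889, beside 0.01 and -0.01 over all genes. The largest absolute log2 fold change among the 50 was 0.36 in the first comparison and 0.25 in the second. A p that missed the threshold does not show that the levels were equal. Without WT without mold replicate 1, act-4 (log2 fold change -0.37) and epic-1 (-0.53) passed in the first comparison and COX3 (0.30) in the second. Other omissions gave genes that were higher with mold. These were vit-2 (0.25) without WT with mold replicate 1 and asp-1 (0.47) without WT with mold replicate 3. Both WT groups had a wide spread, with a biological CV estimated at 21.98% without mold and 21.36% with mold, against 11.63% in ns889 without mold. Without replicate 1 the estimate for WT without mold was 7.115%.

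Class shares of the other groups were set beside those of WT without mold for classes picked from the 48, with no test of the difference. Ribosomal proteins held 18.7 ± 0.331% in ns889 without mold, where every replicate lay above the 3 of WT without mold. In ns889 with mold they held 18.3, 17.8 and 18.4%, also all above. Major sperm proteins held 0.361, 0.312 and 0.193% in WT with mold, all below the lowest value without mold, 0.369%. They held 0.298, 0.341 and 0.308% in ns889 with mold, also all below, and 0.407, 0.338 and 0.337% in ns889 without mold. Other classes also did not overlap between the WT groups. C-type lectins, for example, held 0.406 to 0.455% with mold and 0.359 to 0.370% without. The methionine cycle class held 0.443 to 0.469% with mold and 0.553 to 0.583% without. Vitellogenins held 1.58, 2.07 and 2.34% in WT with mold, a range that contains all 3 values without mold, and 1.32, 1.22 and 1.35% in ns889 with mold, all below them.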

How the data were processed

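Poly(A) RNA of whole animals was measured, and the authors deposited counts per gene, unnormalized, with a gene length that equals the union of exons. Per the submitters' processing notes, STAR 2.4a, featureCounts, FastQC 0.11.12, edgeR 3.28.1 and limma 3.42.2 were used with WBcel235 (the strand setting and the release of the annotation are not stated). Counts of runs were summed per replicate and divided by length to give TPM (Python 3.11.15, pandas 2.3.3). A gene was called detected at 1 TPM. Levels were compared with edgeR 4.0.16 (TMM, filterByExpr, robust quasi-likelihood fit of group means, R 4.3.3), with DESeq2 1.42.0 as an alternative, at an adjusted p of 0.05. Named genes were the 30 most abundant, up to 3 per class, all vitellogenins, the 10 largest and 5 smallest CVs at 10 TPM or more, and markers; others are said to be picked. The members, classes and marker lists were chosen with earlier results of these data known, and 12 classes were added after values were seen. The 48 classes (47 by gene name, 1 of mitochondrial DNA) hold 55.8% of TPM.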

Additional observations from a re-analysis of the deposited data

How the results depend on the processing

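Dividing by length decided the class shares. With CPM, not divided by length, ribosomal proteins held 7.97%, collagens and cuticle 5.36%, translation factors 2.66%, the nuclear respiratory chain 1.54% and chaperones 2.37%. With lengths shortened by 150 bases the values were 19.3% for ribosomal proteins, 1.98% for translation factors, 2.19% for the respiratory chain and 1.98% for chaperones, and without mitochondrial DNA 2.20% for translation factors and 2.13% for the respiratory chain. By counts vitellogenins, at 6.64%, passed the collagens, and major sperm proteins held 0.135%. The number of genes at 1 TPM in all replicates ranged from 9565 to 14220 with the threshold at 5 or 0.5 TPM. The median CV of 10.996% ranged from 2.76% to 12.9% when 1 replicate was left out. Of the 50 most abundant genes, with mold, RLE size factors called 1, DESeq2 called 2, and leaving out 1 replicate called 0 to 2. In ns889, DESeq2, a filter of 5 CPM and a fit of the 2 groups each called 1, and leaving out 1 replicate called 0 to 1. A model with the replicate number as a block called 0 and 1 of the 50, and 312 and 526 of all genes, against 1064 and 488 without the block. A fit of the 2 groups called 83 and 325 of all genes, DESeq2 2287 and 809, RLE size factors 1473 and 449, and a filter of 5 CPM called 3.27 and 4.51% of the genes it left. Same-numbered replicates deviated with correlations of -0.32, 0.22 and -0.27 with mold and 0.28, -0.01 and 0.29 in ns889. Replicates of unlike number gave -0.32 to 0.43 with mold and -0.31 to 0.12 in ns889. Since not every same-numbered pair was positive, the numbers were not taken as pairs. In each group replicate 1 has 1 run and replicates 2 and 3 have 2, and whether the number also marks a batch was not tested. Short genes are the least certain in TPM, and copies of a gene cannot be separated.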

Other observations

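Some features outside protein-coding genes were abundant. A pseudogene on chromosome V (WBGene00023209, 8039469 to 8040387) had 820, 911 and 1040 TPM. It overlaps the coding gene algn-12. The ribosomal RNA gene rrn-3.1 had 860, 1019 and 864 TPM after poly(A) selection. F20C5.10, a noncoding gene with 56 bases, had 419, 327 and 321 TPM, and a length this short makes its TPM uncertain. tts-1, a long noncoding RNA on X, had 202, 66.3 and 68.8 TPM and was high in replicate 1 alone. lep-5, another noncoding RNA on X, had 172, 183 and 189 TPM.

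The most abundant gene in no class was epic-1 (chromosome IV, 17470510 to 17472025), with 2595, 3600 and 3667 TPM, and it was low in replicate 1. dct-16 had 2622, 3065 and 2908 TPM. Genes known only by a clone name held 18.2% of TPM. The genes of cytochrome P450 enzymes, 74 in all, added up to 457, 456 and 456 TPM, whereas UDP-glycosyltransferase genes added up to 974, 1259 and 1263 TPM.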
